A study of Mus musculus with 6 samples.

Results

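The Hedgehog pathway genes described here are Shh, Ihh, Ptch1, Hhip, Smo, Sufu, Gli1, Gli2 and Gli3, which are 9 of the 41388 genes in the count table. They were selected by gene symbol, and the KO against WT values of these same libraries were known when the list was made. Differences between genotypes in these 9 genes are therefore given as a description, with no p-value, and the counts of calls given for them support nothing. Hedgehog ligands are secreted proteins that bind the membrane protein PTCH1. Without ligand, PTCH1 holds the transducer SMO inactive, and with ligand SMO is released and the GLI transcription factors act in the nucleus. Ptch1, Gli1 and Hhip are themselves known transcriptional targets of the pathway, and in the lung Shh is made by epithelial cells and read mainly by the neighbouring mesenchyme.

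Lung RNA was sequenced from adult WT C57BL/6J mice and from Zpbp2-/- mice (KO, strain B6.129S7-Zpbp2tmZuk/Mmjax on a C57BL/6J background), which lack the start of Zpbp2 with its exons 1 to 3. The study was about regulatory links between the Zpbp2 region and the circadian clock. All lungs were taken at Zeitgeber time 7 (ZT7, 7 h after lights on), with 3 libraries of each genotype, and both genotypes were kept in 1 colony under a light/dark cycle with no treatment named. Whether WT and KO mice were littermates was not given in the sources used here.

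Zpbp2 reads served as a check of the genotype labels, with 20, 15 and 7 counts in WT1 to WT3 and 1, 0 and 0 counts in KO1 to KO3. Total counts ran from 59134950 to 71354388 per library, so that 3 counts, the floor used here, stood for 0.0410 to 0.0514 CPM (counts as a share of the TMM-scaled library size, in parts per 1e+06). The club cell gene Scgb1a1 had the most counts in all 6 libraries and the alveolar gene Ager was at 2035 CPM or more, so the defining markers of lung were present. KO2 and KO3 differed from each other by 1.71 to 1.94 times the counting variance over genes from 20 up to 20000 counts. Every other pair within a genotype was at 3.74 to 20.7 times from 200 counts up, and at 1.85 to 3.69 times below that, so KO2 and KO3 stood apart mainly at higher counts. They were counted as 1 sample (n = 3 for WT and n = 2 for KO). WT3 and KO1 carried transcripts of squamous epithelium, summed over 10 marker genes at 4826 and 9217 CPM, against 22.8 to 34.2 CPM in the other 4 libraries. Values without these 2 libraries are given beside the results for Ptch1, Hhip, Shh, Ihh, Gli1 and Gli3 and for some pathway genes. They are effect sizes only, since 2 WT samples then stand against 1 KO sample.

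The promoters of Ptch1 and Hhip are shown because these 2 receptors had the lowest KO to WT ratios among the 9 genes. Each sequence is the 250 bases before the RefSeq gene start on GRCm38.p6, written 5′ to 3′ on the minus strand. Capitals mark matches to the GC box letters GGGCGG on either strand (CCGCCC on the other) and to the cAMP response element letters TGACGTCA.
Ptch1, chr13:63565736-63565985: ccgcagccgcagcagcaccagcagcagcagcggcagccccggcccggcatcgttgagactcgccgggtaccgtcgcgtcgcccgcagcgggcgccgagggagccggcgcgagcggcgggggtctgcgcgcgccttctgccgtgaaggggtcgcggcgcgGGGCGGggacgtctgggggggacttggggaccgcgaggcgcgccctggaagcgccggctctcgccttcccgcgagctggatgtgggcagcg
Hhip, chr8:80058009-80058258: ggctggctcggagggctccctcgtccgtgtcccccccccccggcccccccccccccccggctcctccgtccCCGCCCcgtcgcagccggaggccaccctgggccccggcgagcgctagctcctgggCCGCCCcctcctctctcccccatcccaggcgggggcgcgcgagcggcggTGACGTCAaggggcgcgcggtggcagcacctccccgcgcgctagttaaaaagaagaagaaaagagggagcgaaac
The Ptch1 window lies in an intron of longer annotated Ptch1 transcripts, and the Hhip window lies outside the gene. Both were rich in G and C, at 78.4% in Ptch1 and 76.0% in Hhip, against a median of 52.4% over 32851 mouse promoters of the same length.

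Promoter windows were found for 7 of the 9 genes (Gli2, Gli3, Hhip, Ihh, Ptch1, Smo and Sufu). The GC box letters occurred in 6 of these 7, with Smo as the exception, and in 32.7% of all promoters. In Ptch1 the match began 91 bases before the start, and in Hhip matches began 179 and 124 bases before it. The letters TGACGTCA occurred only in Hhip among the 7, 75 bases before the start, and in 1.55% of all promoters. No matches overlapped each other. The GLI consensus GACCACCCA was in none of the 7 windows and in 0.225% of all promoters, the E-box CACGTG was in none of the 7 and in 6.02%, and TATAAA was in none of the 7 and in 12.4%, each searched on both strands. An absent match says only that these letters are not in the 250 bases searched.

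Ptch1, the receptor that holds SMO inactive, had the lowest KO level relative to WT among the 9 genes. It lies on chr13:63508328-63573598, minus strand (GENCODE M21, GRCm38). It was at 81.9, 84.0 and 82.6 CPM in WT1 to WT3 and at 50.4, 52.6 and 50.3 CPM in KO1 to KO3. The genotypes did not overlap, and the libraries within a genotype lay close together. The WT mean was 82.8 ± 1.09 CPM (SD, n = 3), against 50.9 ± 0.782 CPM (SD, n = 2) for KO, which is 61.5% of WT and a log2 fold change of -0.70 (SE 0.04). Of all tested genes, 5.39% had a lower log2 fold change than Ptch1. In whole lung RNA, fewer cells of the type that makes a transcript and less transcript per cell cannot be told apart. With an offset for gene length and GC content the log2 fold change of Ptch1 was -0.43, and its other alternatives lay between -0.75 and -0.68, with -0.69 without WT3 and KO1.

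Hhip, a membrane protein that binds Hedgehog ligands and keeps them from PTCH1, was also lower in each KO library than in each WT library. It lies on chr8:79965851-80058006, minus strand. It was at 22.8, 24.4 and 27.2 CPM in WT1 to WT3 and at 18.2, 20.4 and 19.4 CPM in KO1 to KO3. The gap between the nearest libraries of the 2 genotypes, WT1 and KO2, was about as wide as the whole range of the KO libraries. The WT mean was 24.8 ± 2.22 CPM (SD, n = 3), against 19.0 ± 1.21 CPM (SD, n = 2) for KO, which is 76.9% of WT and a log2 fold change of -0.37 (SE 0.10). The log2 fold change was -0.16 with the length and GC offset and -0.25 without WT3 and KO1.

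Shh, the main Hedgehog ligand of lung epithelium, was the only gene of the 9 whose KO libraries all lay above all WT libraries. It lies on chr5:28456815-28467256, minus strand. It was at 9.18, 10.2 and 8.41 CPM in WT1 to WT3 and at 11.1, 17.8 and 17.9 CPM in KO1 to KO3. KO1 lay nearer to WT2 than to KO2 and KO3, which are counted as 1 sample. The WT mean was 9.27 ± 0.910 CPM (SD, n = 3), against 14.5 ± 4.73 CPM (SD, n = 2) for KO, with a log2 fold change of 0.65 (SE 0.22) that ranged from 0.58 to 0.94 over 16 alternatives and was 0.88 without WT3 and KO1. Exons of Shh overlap those of the antisense transcript 9530036O11Rik on the plus strand, and whether counting used the strand is not given in the sources used here.

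Ihh, the other ligand of the list, had the lowest counts of the 9 genes. It had 20, 43 and 25 counts in WT1 to WT3 and 27, 39 and 46 counts in KO1 to KO3. The highest level, 0.788 CPM in KO3, had an exact 95% Poisson interval of 0.577 to 1.05 CPM, and the lowest, 0.273 CPM in WT1, had 0.167 to 0.422 CPM. These intervals cover counting error only. The intervals of WT1 and WT2 (0.443 to 0.824 CPM) did not overlap, so the WT libraries differed by more than counting error. The genotypes overlapped, and the log2 fold change was 0.40 (SE 0.42). It moved with single libraries, to 0.16 without WT1, 0.73 without WT2 and 0.70 without KO1, and was 0.67 without WT3 and KO1 and 0.17 with the length and GC offset.

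**Figure D1:**
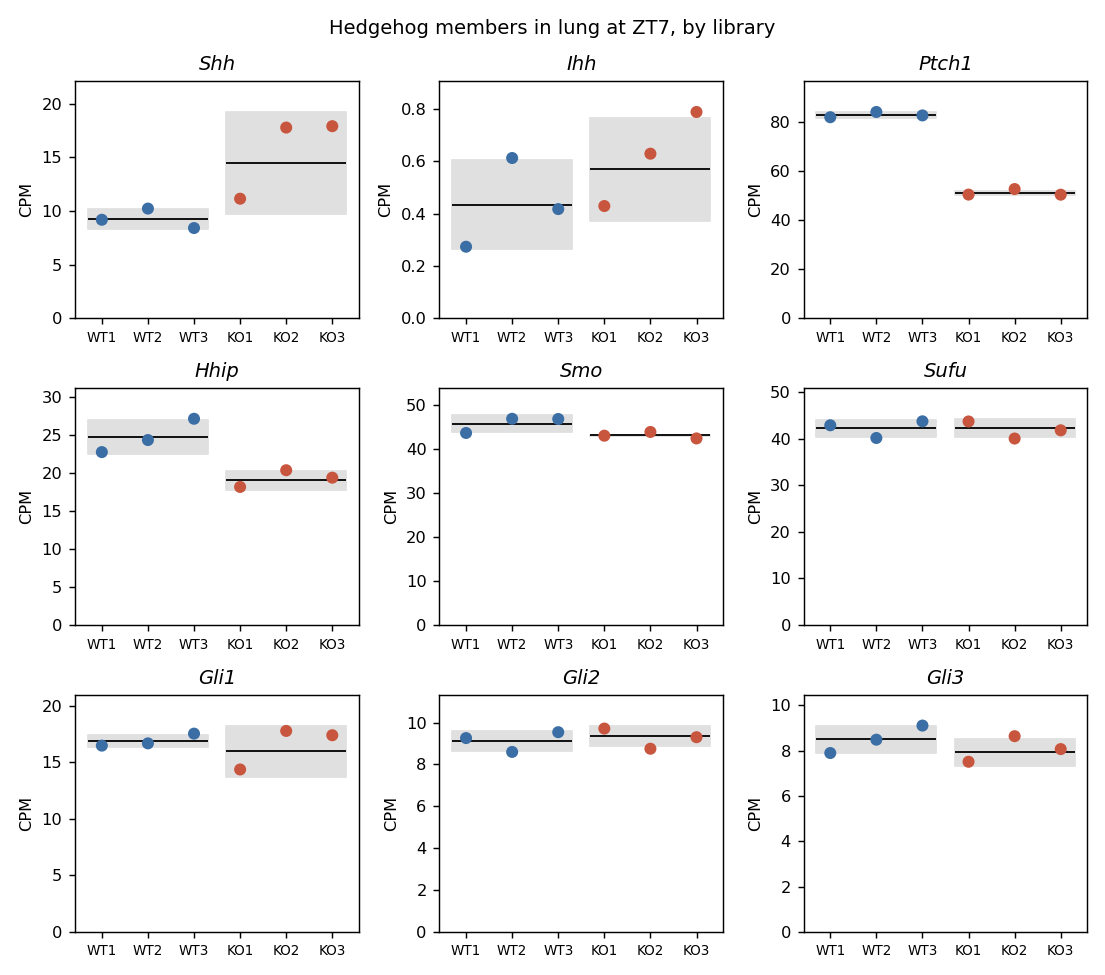
Level in CPM of each of the 9 Hedgehog genes in each library, with WT in blue and KO in red. The line is the genotype mean and the grey band 1 SD either side of it (n = 3 for WT, and n = 2 for KO, where KO2 and KO3 count as 1 sample). The genotypes do not overlap for Ptch1 (WT 81.9 to 84.0, KO 50.3 to 52.6), Hhip (22.8 to 27.2, 18.2 to 20.4) and Shh (8.41 to 10.2, 11.1 to 17.9), and overlap for the other 6.

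Smo, the transducer that PTCH1 holds inactive, was at 43.7, 46.9 and 46.9 CPM in WT1 to WT3 and at 43.1, 43.9 and 42.4 CPM in KO1 to KO3. KO2 lay above WT1, so the genotypes overlapped. The log2 fold change was -0.08 (SE 0.05). Sufu encodes a cytoplasmic inhibitor that binds GLI proteins. It ranged from 40.2 to 43.8 CPM in WT and from 40.1 to 43.7 CPM in KO, with a log2 fold change of 0.01 (SE 0.06) and the same mean, 42.3 CPM, in both genotypes.

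Gli1, an activator whose transcription is a common readout of pathway activity, overlapped between the genotypes, unlike Ptch1 and Hhip. It was at 16.5, 16.7 and 17.5 CPM in WT1 to WT3 and at 14.4, 17.8 and 17.4 CPM in KO1 to KO3. KO1 was the lowest library and KO2 the highest, so the KO libraries spanned all WT values. The WT mean was 16.9 ± 0.563 CPM (SD, n = 3), against 16.0 ± 2.27 CPM (SD, n = 2) for KO, and the log2 fold change was -0.07 (SE 0.11). The sign depended on KO1, since the log2 fold change was 0.06 without it and 0.08 without WT3 and KO1. Gli1 exons overlap those of Arhgap9 on the opposite strand, so its counts may include reads of that gene.

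Gli2, the main activator at the start of a response, ranged from 8.60 to 9.54 CPM in WT and from 8.75 to 9.71 CPM in KO, with a log2 fold change of 0.04 (SE 0.10). Gli3, which acts mostly as a repressor, ranged from 7.89 to 9.11 CPM in WT and from 7.51 to 8.64 CPM in KO, with a log2 fold change of -0.09 (SE 0.11), which was 0.03 without WT3 and KO1. The genotypes overlapped for both. Of the 16 alternatives, 13 kept the sign of Gli2, 14 that of Gli3 and 8 that of Sufu.

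Ptch1 was the 1 gene of the 9 that passed an adjusted p of at most 0.05 in edgeR, where 2.28% of the 18660 tested genes did (1.38% higher and 0.906% lower in KO). Of the calls over all genes, 60.3% were higher in KO, and 38.2% were when libraries were scaled by their size alone. All KO libraries lay below all WT libraries for Ptch1 and Hhip, or 2 of the 9, and for 20.7% of all tested genes. They lay above for Shh alone, or 1 of the 9, and for 20% of all tested genes. Because the list was made with these values known, nothing is read from these counts. The median log2 fold change was -0.07 over the 9 genes and 0.015 over all tested genes. The calls over all genes depended on how KO2 and KO3 were treated. With 6 separate libraries, Ptch1, Hhip and Shh passed, and so did 18.9% of all tested genes (9.81% higher and 9.07% lower in KO). They also depended on the test. In DESeq2, run with KO2 and KO3 summed, the same 3 genes passed, and so did 21.5% of all tested genes. Ptch1 and Shh passed with a squamous epithelium covariate (10.1% of all tested genes) and without WT3 and KO1 (11.9%), and Ptch1 alone with the replicate number as a block (6.42%). With the length and GC offset none of the 9 passed (0% of all tested genes). None passed with WT1, WT2 or WT3 left out either, where 0 of all tested genes did in each fit. Leaving out KO1, alone or with WT3, leaves 1 KO sample, so no calls are given there. The log2 fold change of Ptch1 with WT1, WT2, WT3 or KO1 left out was -0.70 to -0.69.

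**Figure D2:**
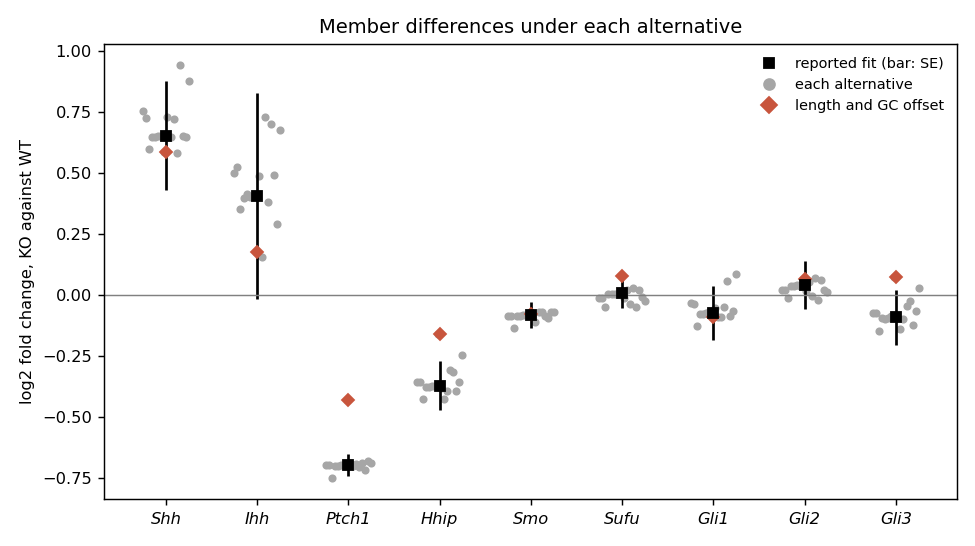
Log2 fold change (KO against WT) of each of the 9 genes in the reported fit (black square, bar of 1 SE) and under each of the 16 alternatives (grey points), with the length and GC offset as a red diamond. Ptch1 is below 0 at every point, from -0.75 to -0.43, Hhip from -0.43 to -0.16, and Shh is above 0 from 0.58 to 0.94, while Sufu, Gli1, Gli2 and Gli3 fall on both sides of 0.

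Levels of different genes were compared as CPM per kb of exon, with all annotated exons of a gene merged. This length (14.2 kb for Ptch1, 2.85 kb for Shh) can exceed that of any single transcript, and the order depends on it. In WT the order of the mean levels was Smo (8.15 CPM per kb), Ptch1 (5.84), Sufu (5.50), Gli1 (3.38), Shh (3.26), Hhip (2.73), Gli2 (1.33), Gli3 (0.886) and Ihh (0.142). Neighbours in this order overlapped between libraries for Gli1 (3.30 to 3.51) with Shh (2.95 to 3.59), and for Shh with Hhip (2.51 to 2.99). In KO the order was Smo (7.67), Sufu (5.51), Shh (5.09), Ptch1 (3.59), Gli1, Hhip (2.10), Gli2 (1.36), Gli3 (0.827) and Ihh (0.187). Sufu (5.21 to 5.69) overlapped there with Shh. Ptch1 stood above Sufu in every WT library and below it in every KO library, where its range overlapped with that of Gli1 (2.88 to 3.56 CPM per kb), although Ptch1 was the higher of the pair within each library. Shh per kb was below Ptch1 in WT and above it in KO, at 3.91 to 6.29 against 3.55 to 3.71 CPM per kb.

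**Figure D3:**
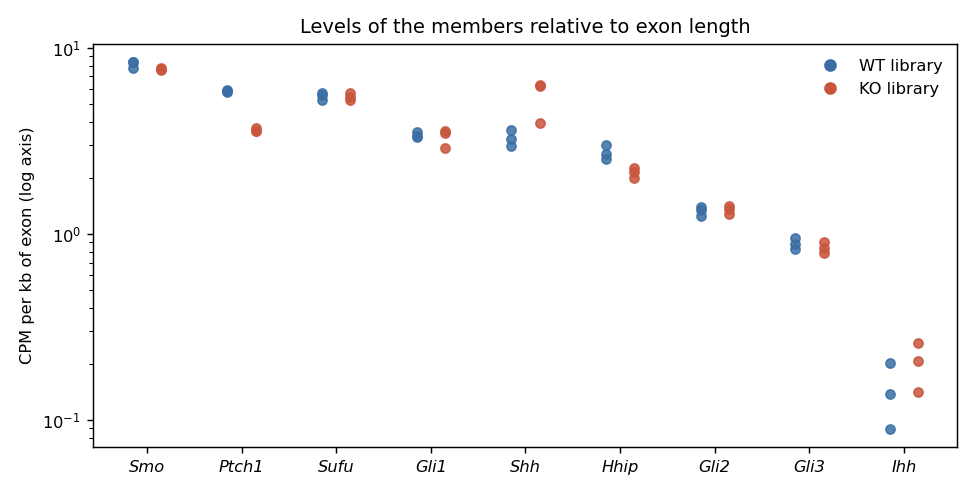
Level of each of the 9 genes in CPM per kb of merged exon (log axis), 1 point per library, WT in blue and KO in red, in the order of the WT means. Ptch1 goes from between Smo and Sufu in WT (5.84) to below Sufu and Shh in KO (3.59), and Ihh is the lowest gene in both genotypes.

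Ratios of raw counts within a library do not depend on how libraries are scaled, and were computed for 6 pairs of the 9 genes. They are not corrected for gene length and GC content. With the offset for these, the log2 fold change was -0.43 for Ptch1, -0.16 for Hhip and -0.08 for Smo. The ratio of Ptch1 to Smo, the receptor to the protein it holds inactive, was 1.87, 1.79 and 1.76 in WT1 to WT3 and 1.17, 1.20 and 1.19 in KO1 to KO3. The genotypes were far apart relative to their spread, with means of 1.81 ± 0.0578 (SD, n = 3) and 1.18 ± 0.0158 (SD, n = 2). The ratio of Ptch1 to Gli1, both targets of the pathway, was 4.91 ± 0.173 in WT and 3.22 ± 0.409 in KO. Ptch1 was also lower relative to Hhip, at 3.36 ± 0.287 in WT and 2.68 ± 0.128 in KO. The ratio of Hhip to Smo was 0.540 ± 0.0343 in WT and 0.442 ± 0.0271 in KO, and no KO library reached the lowest WT library. The ratio of the ligand Shh to its receptor Ptch1 was 0.112, 0.122 and 0.102 in WT1 to WT3 and 0.221, 0.338 and 0.356 in KO1 to KO3. Smo to Sufu was 1.09 ± 0.0758 in WT and 1.02 ± 0.0499 in KO, and overlapped.

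**Figure D4:**
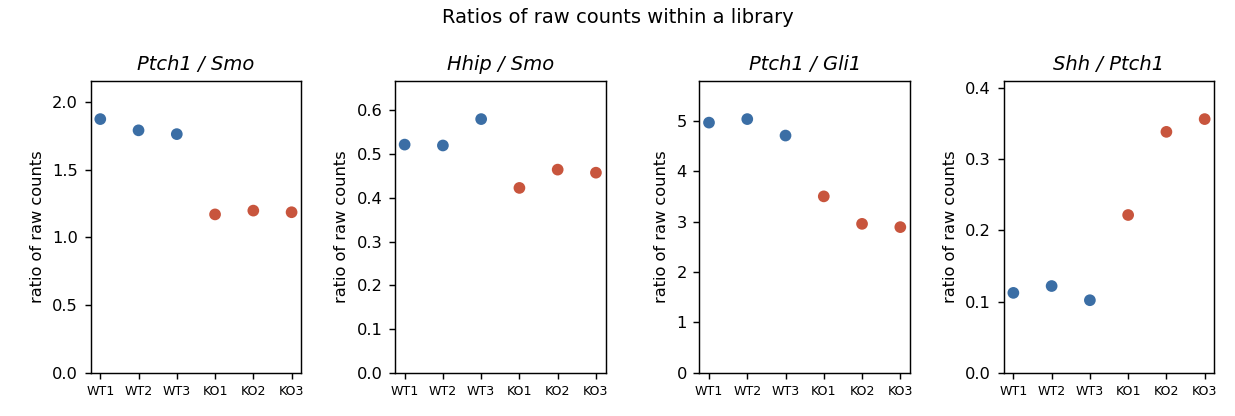
Ratio of raw counts of 2 genes within a library, for 4 pairs, 1 point per library, WT in blue and KO in red. Ptch1 to Smo (1.76 to 1.87 in WT, 1.17 to 1.20 in KO), Hhip to Smo and Ptch1 to Gli1 are lower in every KO library than in any WT library, and Shh to Ptch1 is higher.

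The tested genes whose profile was most like that of a receptor were found by the root mean square (RMS) difference of log2 CPM, centred on its mean, over the 5 samples. For Ptch1 these were Atp7a (RMS 0.0201), Zfp462 (0.0353) and Pik3cg (0.0502). Atp7a, a copper transporter, was at 46.3, 48.4 and 47.8 CPM in WT1 to WT3 and at 28.0, 29.8 and 28.7 CPM in KO1 to KO3. For Hhip they were Csf2rb (RMS 0.0181), Map3k8 (0.0329) and Plekhh2 (0.0365). Csf2rb, a cytokine receptor subunit, was at 33.9, 36.7 and 41.9 CPM in WT1 to WT3 and at 27.9, 30.1 and 30.2 CPM in KO1 to KO3.

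The other genes of the pathway were taken from a list of 44 in 6 roles, all of which were tested, and none passed an adjusted p of at most 0.05 in edgeR (background 2.28%). Before adjustment, 13 of the 44 were at p of 0.05 or below (8 lower and 5 higher in KO), as were 27.3% of all tested genes. With 6 separate libraries 7 of the 44 passed in edgeR (Disp2, Spop and Ccnd1 higher, Scube2, Gsk3b, Cdon and Gpr161 lower), as did 18.9% of all tested genes. DESeq2, run with KO2 and KO3 summed, called these 7 with Csnk1a1 (higher) and Ccnd2 (lower). That is 9 of the 44, where it called 21.5% of all tested genes. A p above the threshold does not show that a gene did not differ. The log2 fold change was negative for 26 and positive for 18, with a median of -0.08 and a range of -0.64 to 0.43. All KO libraries lay below all WT libraries for 13 of the 44, and for 20.7% of all tested genes, and above for 8 of the 44, and for 20% of all tested genes.

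The 44 genes were described by role, each with its most abundant gene per kb. The counts without overlap in each role are small, and are to be read against the 20.7% (lower) and 20% (higher) of all tested genes. Among 7 ligand and ligand release genes, 2 were lower and 1 was higher without overlap. Scube2, which releases lipid-bearing ligand from the cell, was at 66.7, 66.7 and 71.8 CPM in WT1 to WT3 and at 57.7, 44.2 and 42.3 CPM in KO1 to KO3 (log2 fold change -0.43, adjusted p = 0.113 in edgeR). Among 6 receptors and coreceptors, 2 were lower and 1 was higher without overlap. Gpc3, a glypican that competes with PTCH1 for ligand, was at 198.5 to 218.5 CPM in WT and 227.7 to 278.6 CPM in KO (0.27, adjusted p = 0.175 in edgeR). Without WT3 and KO1, 2 WT samples stood against 1 KO sample (KO2 with KO3), so only effect sizes are given. The log2 fold change was then -0.63 for Scube2, 0.41 for Gpc3, -0.38 for Cdon, 0.41 for Gas1 and 0.43 for Ccnd1. Cdon and Gas1, both coreceptors, are named after their values were seen. With all libraries Cdon was at -0.42 (adjusted p = 0.106 in edgeR) and Gas1 at 0.22 (adjusted p = 0.281), and Gas1 overlapped between the genotypes.

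Among 6 genes of the relay from SMO, 2 were lower and 2 were higher without overlap (20.7% and 20% of all tested genes). Adrbk1, the kinase GRK2 that phosphorylates SMO, averaged 183 ± 10.9 CPM (SD, n = 3) for WT, against 192 ± 12.7 CPM (SD, n = 2) for KO, and the genotypes overlapped. Among 9 genes of GLI processing, 4 were lower and 2 were higher without overlap, against the same shares. Spop, an adaptor that marks GLI proteins for degradation, averaged 313 ± 8.32 CPM (SD, n = 3) for WT, against 349 ± 4.16 CPM (SD, n = 2) for KO (0.16, adjusted p = 0.132 in edgeR).

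Among 9 cilium transport genes, 1 was lower and none was higher without overlap (20.7% and 20% of all tested genes), and none was at an unadjusted p of 0.05 or below in edgeR, where 27.3% of all tested genes were. Ift52, a subunit of the transport complex, averaged 44.3 ± 1.87 CPM (SD, n = 3) for WT, against 44.7 ± 2.26 CPM (SD, n = 2) for KO. Among 7 reported targets other than the 9 genes, 2 were lower and 2 were higher without overlap, 5 had a positive log2 fold change and the median was 0.28. Foxf1, a transcription factor of lung mesenchyme, was at 219.5, 215.2 and 226.6 CPM in WT1 to WT3 and at 303.0, 235.7 and 228.5 CPM in KO1 to KO3. KO1 stood apart and KO3 lay close to WT3 (0.28, adjusted p = 0.198 in edgeR). Ccnd1, a cyclin, had the smallest adjusted p of the 44, 0.0704 in edgeR, and is named after its values were seen. It was at 217.4, 235.6 and 238.5 CPM in WT1 to WT3 and at 276.6, 307.3 and 302.7 CPM in KO1 to KO3.

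**Figure D5:**
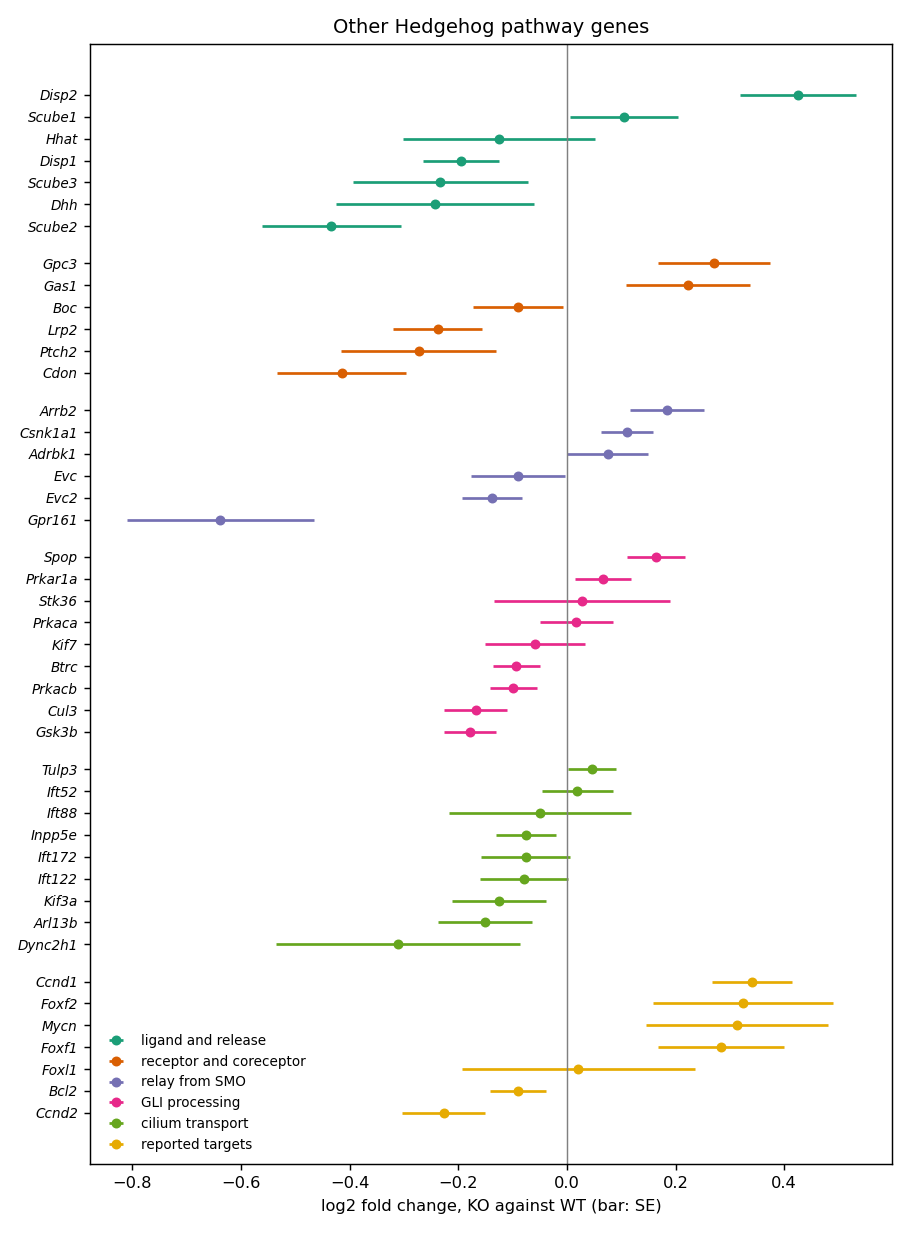
Log2 fold change (KO against WT, bar of 1 SE) of the 44 other Hedgehog pathway genes, grouped by role and coloured by it. Values run from -0.64 (Gpr161) to 0.43 (Disp2), and 26 of the 44 lie below 0.

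Marker lists of cell types are given beside these results. The sums overlapped between the genotypes for smooth muscle, both fibroblast lists, endothelial, ciliated, mesothelial and erythroid markers. Counts of markers lower or higher in every KO library are to be read against 20.7% (lower) and 20% (higher) of all tested genes. All 8 adipocyte markers were lower in every KO library (sums of 704.7 to 1140 CPM in WT and 104.3 to 291.5 CPM in KO), and so were all 8 cardiomyocyte markers (2536 to 7200 and 1339 to 1518 CPM). Of 8 cartilage markers, 5 were lower (5.05 to 13.5 and 1.89 to 2.60 CPM), with Acan at 0 in KO1. Matn1, Col9a1 and Hapln1 overlapped between the genotypes. Matn1 had 3, 1 and 5 counts in WT1 to WT3 and 0 in KO2. Col9a1 had 15, 11 and 6 counts in WT1 to WT3 and 0 in KO1. Of 7 alveolar fibroblast markers, 2 were lower, Pdgfra and Itga8 (1628 to 1768 and 1394 to 1703 CPM), and of 7 adventitial fibroblast markers, 3 were lower, Pi16, Dcn and Col14a1, and 1 was higher, Ly6a (1254 to 1353 and 1072 to 1265 CPM). Among 8 smooth muscle markers none was lower in every KO library and 1 was higher, Tagln (1001 to 1614 and 1163 to 1899 CPM). Among 8 endothelial markers 1 was lower, Tek, and 3 were higher, Cldn5, Egfl7 and Ramp2 (4307 to 4550 and 4246 to 5148 CPM). Higher in every KO library were 7 of 8 alveolar type 2 markers (25040 to 26740 and 34920 to 36970 CPM), 4 of 8 alveolar type 1 markers (5348 to 5769 and 6133 to 6718 CPM) and 2 of 5 club cell markers (28480 to 33370 and 37810 to 50030 CPM). The type 1 marker Clic5 was lower in every KO library. The ciliated sums overlapped (2129 to 2468 and 1990 to 2791 CPM), with 2 of 8 markers higher. KO2 and KO3, which count as 1 sample, had the highest Shh. They also held the highest sums of 6 erythroid markers (18990 and 19730 CPM, against 2399 to 5522 CPM in the other 4 libraries). So they did for 6 mesothelial markers (710.6 and 710.3, against 471.7 to 505.4 CPM) and the 8 ciliated markers (2791 and 2729, against 1990 to 2468 CPM). The same held for the club cell sums (50030 and 49870, against 28480 to 37810 CPM) and the alveolar type 1 sums (6718 and 6659, against 5348 to 6133 CPM). It did not hold for every list, since the alveolar type 2 sum was highest in KO1 (36970 CPM, against 35090 and 34920 CPM in KO2 and KO3). The part of these cell types in the values of Ptch1, Hhip and Shh was not tested.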

How the data were processed

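The 9 genes, the pathway and marker lists and the alternatives were chosen with earlier results of these data known. The authors deposited raw counts per gene and library. Per the submitters' processing notes they used Trimmomatic 0.36, STAR 2.5.3a, Picard 2.9.0 and HTSeq 0.6.0, with GRCm38 as the genome. The annotation release and the use of strand are not given in the sources used here, and reads of overlapping genes may be shared. Positions were taken from GENCODE M21, and promoter sequences from RefSeq (GRCm38.p6).

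Counts of KO2 and KO3 were summed, and their mean CPM was 1 value in each mean ± SD. The comparison was run with edgeR 4.0.16 under R 4.3.3 (filterByExpr, TMM, quasi-likelihood test, two-sided, Benjamini-Hochberg adjustment over 18660 genes, threshold 0.05). The fit was checked on simulated data. SEs were derived from the F statistic. Named genes were the 9 genes, the most abundant pathway gene per kb in each role, called pathway genes, the 3 nearest profiles of Ptch1 and Hhip (mean of at least 1 CPM) and Zpbp2. Alternatives were 6 separate libraries, a replicate block, 2 other scalings, 2 other filters, DESeq2 1.42.0, a length and GC offset, a squamous covariate and each library left out. Leaving out WT3 and KO1 together was chosen after seeing the data, and leaves 2 WT samples against 1 KO sample. The study's methods give 3 mice per genotype.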

Additional observations from a re-analysis of the deposited data

How the results depend on the processing

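Ptch1 kept a negative log2 fold change under all 16 alternatives, with -0.75 under library size scaling, -0.43 with the length and GC offset and -0.72 to -0.68 when libraries were left out. Hhip kept its sign too, with -0.16 under the offset, -0.25 without WT3 and KO1 (chosen after seeing the data) and -0.43 to -0.31 when libraries were left out. The number of genes called (426) was 3402 with 6 separate libraries, 937 with at least 10 counts in every library, 3875 in DESeq2, 1877 with the squamous covariate, 2256 without WT3 and KO1, and 0 with the offset in edgeR, where 3454 lay at an unadjusted p of at most 0.05. With a library left out, the number called was 0 without WT1, WT2 or WT3, 355 without KO2 and 418 without KO3. Calls are not given without KO1, alone or with WT3, since 1 KO sample is then left. Of the 44 pathway genes (0 called in edgeR), 7 were called with 6 separate libraries, 9 in DESeq2, 3 with the squamous covariate and 5 without WT3 and KO1, and 0 with any single library left out. With the replicate block the calls were 1157 genes and 1 pathway gene (Ccnd1). Deviations of same-numbered libraries correlated at -0.656, 0.755 and -0.821, and those of WT3 and KO1, the libraries with squamous transcripts, at 0.853, so pairing by number was not shown and no pairing was used. The cause of these shifts was not tested.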
